A study of Mus musculus with 12 samples.

Results

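Aminoacyl-tRNA synthetases are the enzymes that load transfer RNAs with their amino acids, and the RNA of 36 mouse genes for them was followed in naïve CD8+ T cells. The genes were taken by symbol out of 14323 symbols in the count table, and all 36 were found. Of these, 20 encode the enzymes of the cytosol and 16, whose symbols end in 2, encode the enzymes of the mitochondria. Each of the 36 symbols matched 1 protein coding gene of the mouse annotation.

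Cells with the sort profile TCRβ+CD8+CD62L+CD44- came from the spleens of 3 wild type mice, adults of the C57BL/6N background, and those of each mouse were divided over 4 cultures of 6 h. Wells were coated with anti-CD3ε (145-2C11), which triggers the T cell receptor complex, or were left without it, and these are called stimulated and unstimulated. Both were combined with anti-LAIR-1 (2C7), an antibody that ligates the inhibitory collagen receptor LAIR-1, or with its isotype control, and each antibody was coated at 2.5 µg/ml. This gave 12 libraries, 1 for each mouse and condition, with n = 3 mice in every group. Labels of the unstimulated libraries read iso where those of the stimulated ones read aCD3, which points to an isotype antibody in place of anti-CD3. The methods do not describe such a control.

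Cytosolic synthetases supply charged tRNAs to the ribosomes that translate nuclear messages, and mitochondrial synthetases supply the separate ribosomes that make the few proteins encoded by mitochondrial DNA. Most amino acids have a gene for each place, but glycine and lysine share a single gene, Gars and Kars, whose products are made for both places. In the cytosol several synthetases are bound together in the multi-synthetase complex on scaffold proteins. Resting naïve T cells make little protein, and stimulation through the T cell receptor is known to raise translation and growth.

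Library totals ranged from 1781218 to 7725545 counts, and the limit that 3 counts set was between 0.388 and 1.68 CPM, the counts scaled to the library size. All 6 genes of a stimulation check (Cd69, Il2ra, Nr4a1, Egr2, Myc and Tnfrsf9) were higher with anti-CD3, with log2 fold changes from 2.69 to 5.25 in the isotype libraries. Of 11 CD8+ T cell and naïve T cell markers, 9 were in the table, and their summed level was 5805 to 6411 CPM in the 6 unstimulated libraries and 1774 to 2587 CPM in the 6 stimulated ones. Summed markers of other cells were low: 1.08 to 10.2 CPM for B cells, 3.67 to 13.8 CPM for dendritic cells, 0.991 to 5.38 CPM for myeloid cells, 0 to 4.84 CPM for CD4 T cells, 0 to 0.661 CPM for NK cells, 0 to 0.407 CPM for red cells and 0 to 3.44 CPM for platelets. RNA encoded by mitochondrial DNA made up 17.6% to 20.9% of counts in unstimulated libraries and 11.5% to 13.2% in stimulated ones. The part of the lower naïve marker level and of the lower mitochondrial RNA share in the results was not tested. In bulk RNA, fewer cells that express a gene and less of its RNA in each cell cannot be told apart, and CPM is relative to the library, so that the total RNA of a cell was not measured.

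The first question was how the synthetase genes responded to anti-CD3. In the isotype libraries, 19 of 20 cytosolic genes rose, with a median log2 fold change of 1.46 (2.76-fold) over the class, while the mitochondrial genes were divided: 5 rose, 2 fell, 8 did not pass the test and 1, Ears2, was too low to be tested. For comparison, 35.3% of the 8690 genes tested rose and 36.1% fell (edgeR quasi-likelihood F-test, Benjamini-Hochberg adjusted p below 0.05). The median of the 15 tested mitochondrial genes was -0.03, beside a median of -0.03 over all genes tested.

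**Figure D1:**
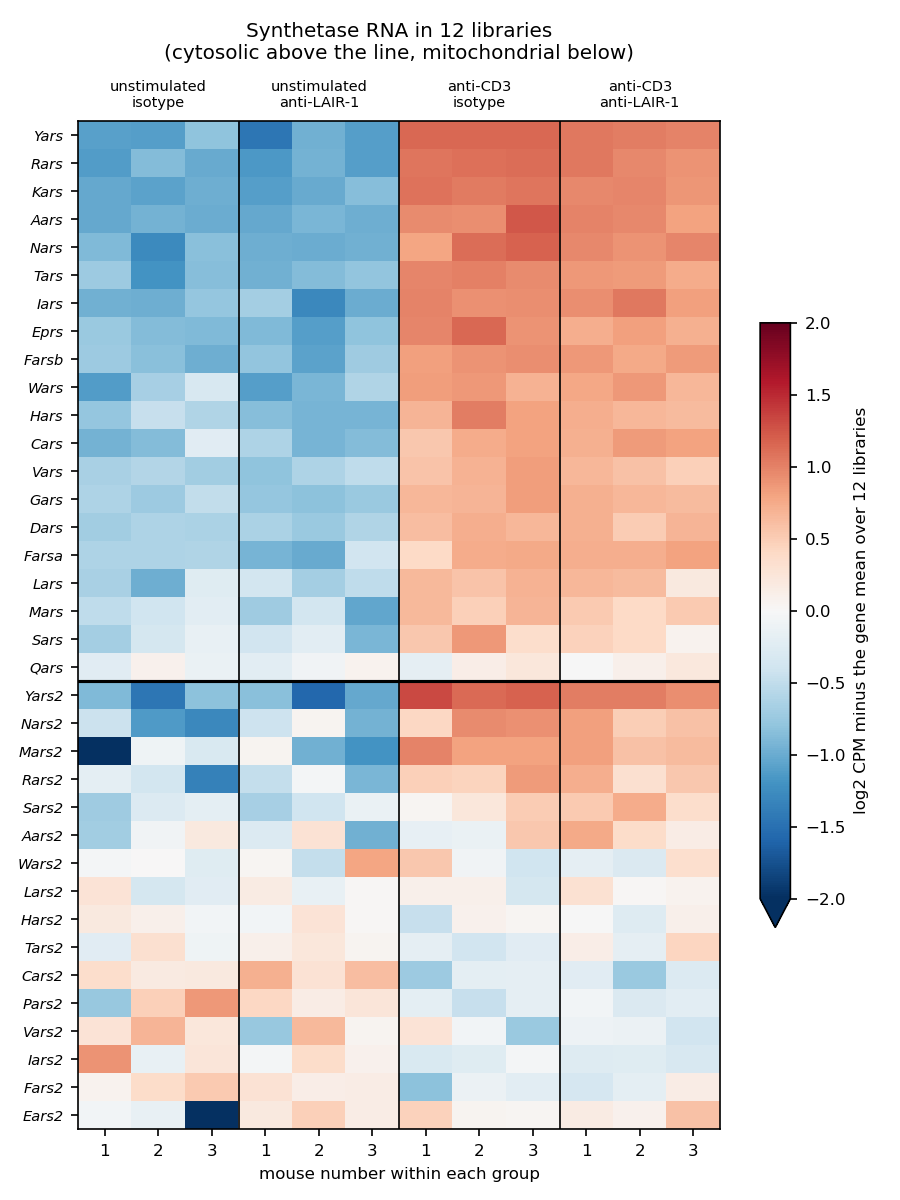
Heat map of the 36 synthetase genes (20 cytosolic above the line, 16 mitochondrial below) in the 12 libraries, ordered within each class by the log2 fold change with anti-CD3 in the isotype libraries. Colour gives log2 CPM minus the mean of the gene over the 12 libraries on a scale from -2 to 2. Values ran from -2.17 to 1.31, with 1 cell below the scale, and the cytosolic block turned from blue to red with anti-CD3 in all rows but Qars, while few mitochondrial rows did.

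Among the cytosolic genes the largest response was that of Yars (tyrosyl-tRNA synthetase, chr4:129189760-129219607, + strand, mm10). Its level was 13.5, 13.4 and 16.7 CPM in the unstimulated isotype libraries of mice 1, 2 and 3, and 65.8, 65.6 and 65.5 CPM with anti-CD3. The groups did not overlap, and the log2 fold change was 2.15 ± 0.16 (SE), with an edgeR adjusted p of 3.08e-11. Rars (arginyl-tRNA synthetase, chr11:35808381-35834506, - strand), a member of the multi-synthetase complex, followed with 36, 42.8 and 38.8 CPM against 165, 170 and 171 CPM. Its log2 fold change was 2.07 ± 0.12 (edgeR adjusted p = 2.81e-13), again with every stimulated library above every unstimulated one.

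Other cytosolic genes with a response of about the same size were Kars (lysine, 2.06 ± 0.11), Aars (alanine, 2.02 ± 0.12) and Nars (asparagine, 1.99 ± 0.13). The last 500 bases of Aars, where 3′ counting takes its reads, overlap exons of Exosc6 on the same strand, so that its counts are less certain than the others. Tars (threonine) changed by 1.86, Iars (isoleucine) by 1.83, Eprs, the fused enzyme for glutamate and proline, by 1.80 and Farsb, the beta subunit of the phenylalanine enzyme, by 1.69. Its partner subunit Farsa changed by 1.24 ± 0.15 (edgeR adjusted p = 1.6e-07), against 1.69 ± 0.11 for Farsb. Between 1.2 and 1.5 lay also Wars (tryptophan, 1.48), Hars (histidine, 1.45), Cars (cysteine, 1.37), Vars (valine, 1.32), Gars (glycine, 1.31), Dars (aspartate, 1.29) and Lars (leucine, 1.22). The smallest responses that passed the test were those of Mars (methionine, 0.97 ± 0.15) and Sars (serine, 0.96 ± 0.13). The last 500 bases of Mars overlap exons of Ddit3 on the opposite strand, and the same holds for Yars and C77080 and for Farsb and Sgpp2, and whether reads were counted by strand is not given in the sources used here.

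Qars, which loads glutamine, was the cytosolic gene that did not pass the test. It stood at 61.8, 77.4 and 66.2 CPM without anti-CD3 and at 64.3, 79.5 and 85.4 CPM with it, so that the groups overlapped. Its log2 fold change was 0.14 ± 0.13 (edgeR adjusted p = 0.368), and it was -0.04 when libraries were scaled by their upper quartile. In each of the 3 mice the response of Qars (0.06, 0.04 and 0.37) was below the class median of that mouse (1.51, 1.58 and 1.47).

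**Figure D2:**
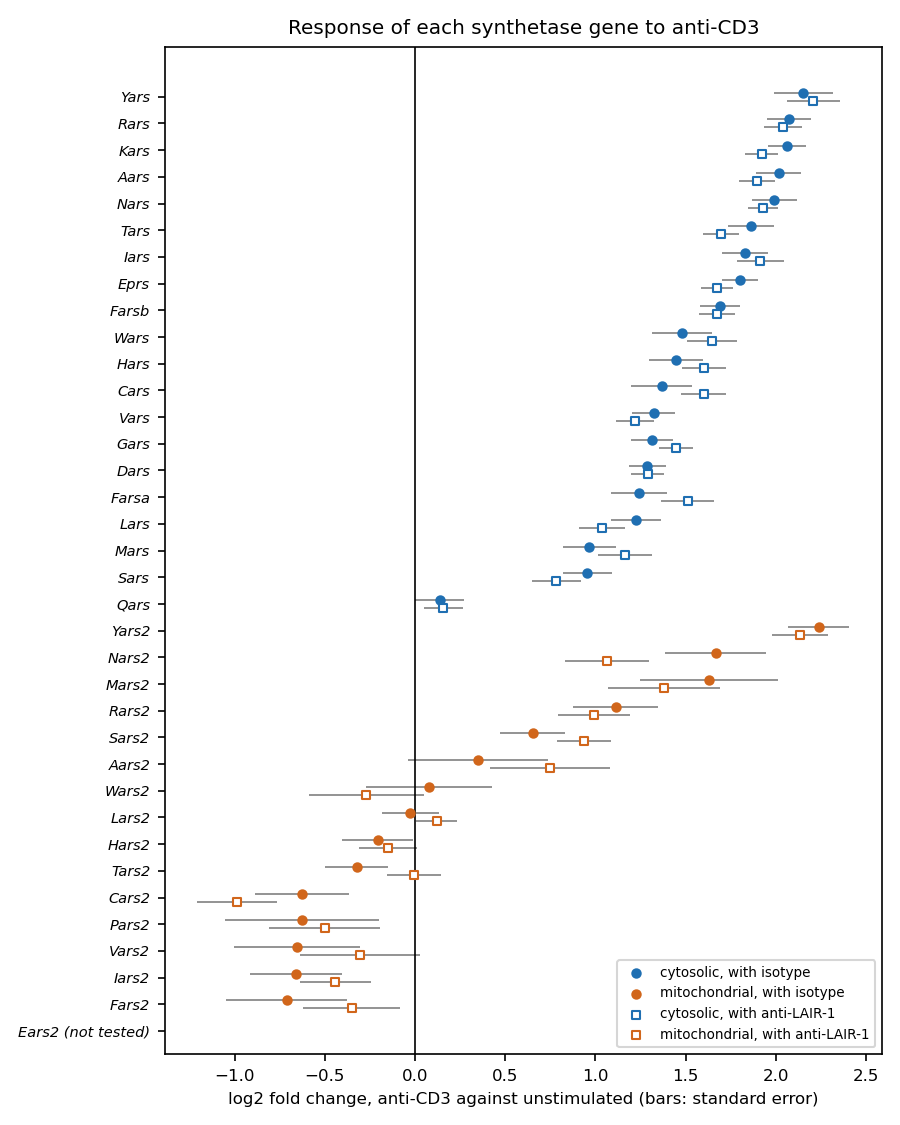
Log2 fold change of each synthetase gene with anti-CD3 against unstimulated cells (x axis, bars give the standard error of the edgeR fit, n = 3 mice per group). Filled circles are the isotype libraries and open squares the anti-LAIR-1 libraries, blue for cytosolic and orange for mitochondrial genes. Cytosolic genes run from 0.14 to 2.15 with isotype, and mitochondrial genes from -0.71 to 2.24.

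Grouping the cytosolic genes by what is known of the enzymes did little to separate them. The 8 genes of the multi-synthetase complex had a median log2 fold change of 1.55 and the other 12 a median of 1.46. Synthetases come as a pair of unrelated folds, class I and class II, and the medians were 1.37 over 9 class I genes and 1.57 over 10 class II genes, with the fused Eprs counted in neither. The 3 scaffold genes of the complex all rose: Eef1e1 by 3.45 ± 0.12, Aimp2 by 2.22 ± 0.14 and Aimp1 by 0.98 ± 0.13. Each of these passed the edgeR test, the largest adjusted p being 4.76e-07 (Aimp1).

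The mitochondrial gene with the largest response, Yars2 (mitochondrial tyrosyl-tRNA synthetase, chr16:16302965-16309640, + strand), had a fold change close to that of Yars. It was at 16.5, 11 and 17.2 CPM in the unstimulated isotype libraries and at 77.6, 68.5 and 70.3 CPM with anti-CD3. Every stimulated library was at least as high as 68.5 CPM and no unstimulated one was above 17.2 CPM, which gave a log2 fold change of 2.24 ± 0.17 (edgeR adjusted p = 3.68e-11). The other mitochondrial genes that rose were Nars2 (asparagine, 1.67 ± 0.28, adjusted p = 1.24e-05), Mars2 (methionine, 1.63 ± 0.38, adjusted p = 0.000627), Rars2 (arginine, 1.11 ± 0.24, adjusted p = 0.000216) and Sars2 (serine, 0.65 ± 0.18, adjusted p = 0.00236). Mars2 was at 0.991 CPM in mouse 1 and at 5.7 and 4.84 CPM in mice 2 and 3 without anti-CD3, so that its change was 3.17 in mouse 1 and 0.89 and 1.12 in the others. All 5 rose in each of the 3 mice.

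Cars2 and Iars2 were the mitochondrial genes that fell, and neither call was firm. Iars2 (mitochondrial isoleucyl-tRNA synthetase, chr1:185284726-185329396, - strand) was at 25.8, 12.2 and 16.1 CPM without anti-CD3 and at 10.9, 11.4 and 13.2 CPM with it. The groups overlapped, and the log2 fold change of -0.66 ± 0.25 (edgeR adjusted p = 0.024) became -0.27 (adjusted p = 0.399) without the unstimulated library of mouse 1. It also lost the call without the stimulated library of mouse 1 (adjusted p = 0.0694) or of mouse 2 (0.0712), and in DESeq2 (0.058). Cars2 (cysteine) was at 13.9, 12.2 and 12.4 CPM without anti-CD3 and at 6.34, 9.31 and 9.47 CPM with it, without overlap. Its log2 fold change was -0.63 ± 0.26 (edgeR adjusted p = 0.0359), and the adjusted p was 0.0883 in DESeq2, 0.115 without the unstimulated library of mouse 1, and 0.142, 0.0553 and 0.0523 without the stimulated library of mouse 1, 2 or 3. The last 500 bases of both genes overlap exons of a gene on the opposite strand (Rab3gap2 and Naxd).

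The lowest fold change of the family was that of Fars2, the single chain mitochondrial phenylalanine enzyme, which did not pass the test. Its levels were 6.61, 8.15 and 9.15 CPM without and 3.32, 5.71 and 5.3 CPM with anti-CD3, with a log2 fold change of -0.71 ± 0.34 (edgeR adjusted p = 0.0621). Exons of Nrn1 overlap the last 500 bases of Fars2 on the opposite strand. Vars2 (valine) had 7.27, 9.78 and 7 CPM against 7.24, 5.71 and 3.37 CPM, overlapping groups and a log2 fold change of -0.65 ± 0.35 (adjusted p = 0.0966). The remaining values that did not pass were -0.63 for Pars2 (proline), -0.32 for Tars2 (threonine), -0.21 for Hars2 (histidine), -0.03 for Lars2 (leucine), 0.08 for Wars2 (tryptophan) and 0.35 for Aars2 (alanine). Fars2 and Tars2 passed with a negative sign when libraries were scaled by their totals (adjusted p = 0.0376 and 0.042) or by the upper quartile (0.0214 and 0.0138). Vars2 did so with the upper quartile (0.0374), and Fars2 and Vars2 with at least 10 counts required in every library (0.0257 and 0.0442). Pars2 and Tars2 did so without the unstimulated library of mouse 1 (0.0356 and 0.041). Ears2, the mitochondrial glutamate enzyme, had at most 2.33 CPM in any library and 0 counts in the unstimulated isotype library of mouse 3, where 3 counts would be 1.68 CPM.

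The median of all genes tested shifted from -0.03 to -0.20 with the upper quartile and to -0.12 with library totals. A scaling moves all genes of a library alike, so that the class medians are given relative to it, at 1.49 above it for the cytosolic and within 0.00247 of it for the mitochondrial genes. The cytosolic median was 1.51, 1.58 and 1.47 by mouse, and the mitochondrial median 0.54, -0.06 and -0.12. Without a filter, and with Ears2 then included, the mitochondrial median was 0.12. Summed over the class, cytosolic synthetase RNA was 1047 ± 52.9 CPM (SD, n = 3) in unstimulated isotype libraries and 3118 ± 132 CPM with anti-CD3. Mitochondrial synthetase RNA went from 248 ± 13.8 to 335 ± 4.44 CPM, so that the ratio of the sums changed from 4.23 ± 0.41 to 9.32 ± 0.31. Within the mitochondrial sum Yars2 went from 14.9 ± 3.41 to 72.1 ± 4.78 CPM, while Lars2, which gave the most counts before stimulation, was at 61.5 ± 15 and 63.1 ± 10.6 CPM. The rise of the mitochondrial sum was thus mostly that of Yars2.

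**Figure D3:**
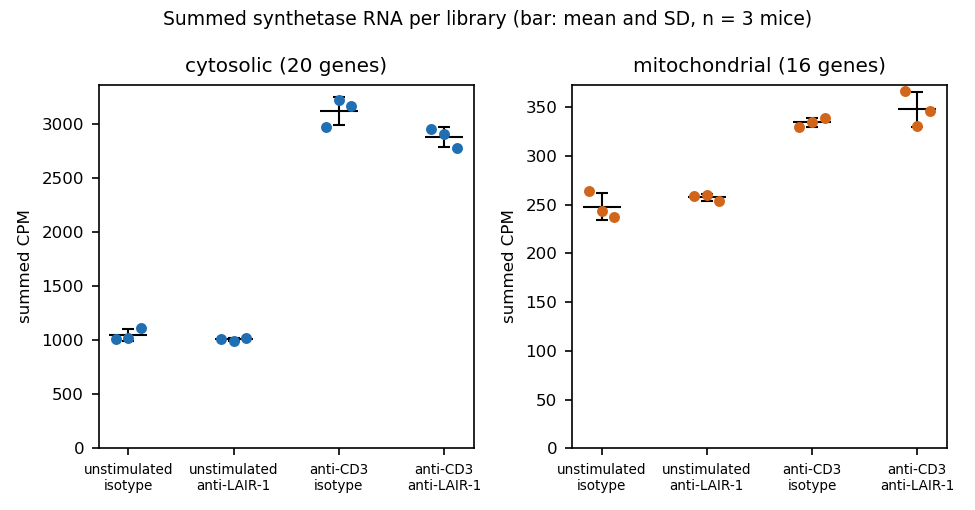
Summed CPM of the 20 cytosolic genes (left) and the 16 mitochondrial genes (right) in each library, with the mean and SD of the 3 mice in each of 4 groups. Both axes start at 0, and the scales differ. Cytosolic sums were 996 to 1108 CPM in unstimulated libraries and 2778 to 3224 CPM in stimulated ones, and mitochondrial sums 237 to 264 CPM and 330 to 367 CPM.

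Setting the enzymes for the same amino acid side by side gave 16 pairs, of which 15 could be tested on both sides. With isotype, the cytosolic gene had the larger log2 fold change in 13 of the 15, and in 10 of them in each of the 3 mice. Isoleucine had the widest gap. Iars (chr13:49682100-49734267, + strand) went from 29.7, 29.3 and 33.9 CPM to 116, 110 and 111 CPM, and the difference from the Iars2 values given above was 2.49, with 3.16, 1.99 and 1.98 in the 3 mice. Both are on the log2 scale, and the 3 mice all had the same sign.

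Proline came next with a gap of 2.43 between Eprs (chr1:185363044-185428360, + strand) and Pars2 (chr4:106651069-106655282, + strand). Eprs was at 122, 112 and 111 CPM without anti-CD3 and at 402, 451 and 383 CPM with it, while Pars2 was at 2.31, 6.11 and 8.07 CPM and at 3.62, 2.96 and 3.69 CPM. Pars2 was therefore near the limit of detection and went up in mouse 1 and down in mice 2 and 3, and the gap was 1.16, 2.94 and 2.82 in the 3 mice. For threonine, Tars (chr15:11382301-11399665, - strand) went from 47.2, 33.8 and 43.1 CPM to 155, 158 and 151 CPM. Tars2 (chr3:95739976-95760206, - strand) was at 28.7, 42 and 31.8 CPM and at 29.6, 25.6 and 28.7 CPM, and the gap was 2.18 (1.66, 2.91 and 1.94 by mouse).

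Tyrosine and methionine were the amino acids for which the mitochondrial gene had the larger value. The difference was -0.09 for tyrosine, with both Yars and Yars2 above 2, and by mouse it was 0.04, -0.34 and -0.06. For methionine it was -0.66, but -2.01 in mouse 1, where unstimulated Mars2 was at 0.991 CPM, and -0.01 and -0.22 in mice 2 and 3. Arginine, asparagine and serine had gaps of 0.96, 0.32 and 0.30, each of the opposite sign in mouse 3 (-0.08, -0.19 and -0.19).

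**Figure D4:**
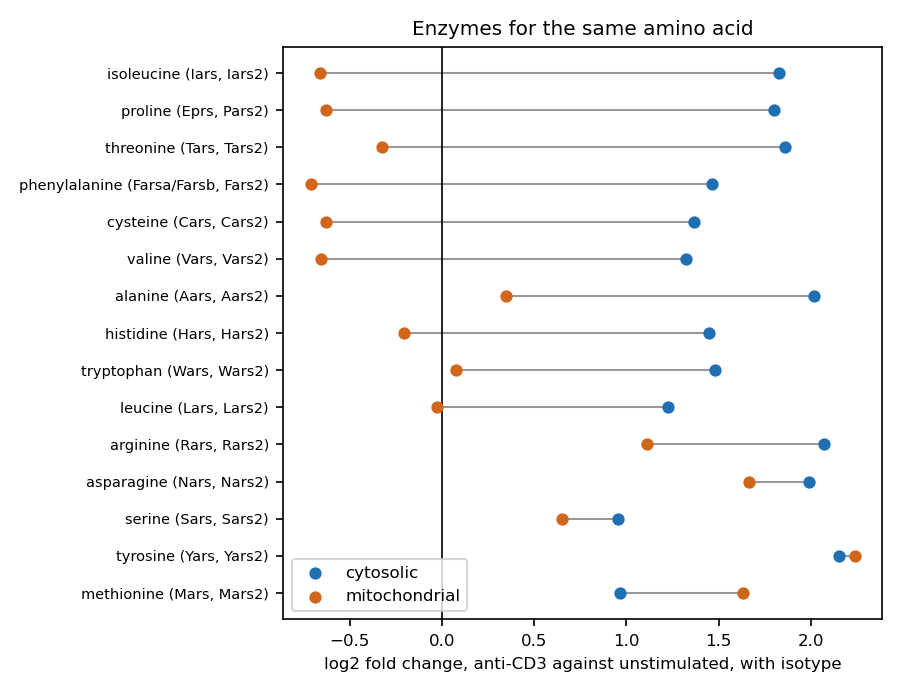
Log2 fold change with anti-CD3 in the isotype libraries for the 15 amino acids with a tested gene of each class, blue for the cytosolic and orange for the mitochondrial gene, joined by a line. For phenylalanine the blue point is the mean of Farsa and Farsb. The gap runs from 2.49 for isoleucine at the top to -0.66 for methionine at the bottom.

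Promoters of 26 of the 36 genes, 12 cytosolic and 14 mitochondrial, could be taken from RefSeq (GRCm38.p6) as the 250 bases before and 50 bases after the transcription start. They were searched on both strands for TGATGNAA, the C/EBP-ATF response element that dimers with the stress factor ATF4 can bind, and for CACGTG, the E-box of MYC and MAX. TGATGNAA was in 5 of the 12 cytosolic promoters (41.7%) and in 0 of the 14 mitochondrial ones, against 4.51% of 27025 promoters. CACGTG was in 4 cytosolic promoters (33.3%) and in that of Ears2 (7.14% of the mitochondrial ones), against 8.09% of all. None of the matches shown shared a base with another. A match of letters is not a measured binding site, and genes without a match may have sites outside the window.

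The TGATGNAA matches of Gars, Iars, Tars and Yars are shown as examples of the element in genes that rose, each with 10 bases on either side of the element, which is in capitals, on the strand of the gene. Distances count from the start as 1, with -1 the base before it.
Gars, chr6:55037961-55037988, + strand, first base at -30: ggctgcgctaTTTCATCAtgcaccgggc
Iars, chr13:49682127-49682154, + strand, first base at 8: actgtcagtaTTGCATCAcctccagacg
Tars, chr15:11399656-11399683, - strand, first base at -15: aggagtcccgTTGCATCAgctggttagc
Yars, chr4:129189896-129189923, + strand, first base at 4: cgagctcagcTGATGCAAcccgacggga

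In Gars, Iars and Tars the strand of the gene carries the reverse complement of the motif as written, and in Yars the motif itself. The fifth gene with the element was Aars. The log2 fold changes with anti-CD3 were 2.02 (Aars), 1.31 (Gars), 1.83 (Iars), 1.86 (Tars) and 2.15 (Yars), and those of the 7 searched cytosolic genes without it ran from 0.14 (Qars) to 2.06 (Kars), so that the ranges overlapped. The other 8 cytosolic genes were not searched.

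The E-box matches of the cytosolic genes are shown in the same way, with CACGTG in capitals.
Aars, chr8:111033686-111033711, + strand, first base at -146: tcaaccctgtCACGTGacactccatg
Farsb, chr1:78488921-78488946, - strand, first base at -39: agacaggcatCACGTGagacagccca
Iars, chr13:49682051-49682076, + strand, first base at -69: ccaatcgccaCACGTGttgtttgtag
Tars, chr15:11399624-11399649, - strand, first base at 20: cgcctgtggcCACGTGgcgcacgcgc

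Aars, Iars and Tars thus held both elements within the window. Yars2, the mitochondrial gene with the largest response, held neither of them, and its 250 bases before the start, which no annotated exon covers, are given for comparison with the cytosolic genes above.
Yars2, chr16:16302715-16302964, + strand: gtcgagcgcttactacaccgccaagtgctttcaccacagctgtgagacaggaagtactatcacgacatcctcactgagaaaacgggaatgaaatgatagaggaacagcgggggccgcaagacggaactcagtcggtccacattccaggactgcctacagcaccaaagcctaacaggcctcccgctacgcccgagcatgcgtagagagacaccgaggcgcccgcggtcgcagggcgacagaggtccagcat

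In the same windows, the palindromic site of NRF1, a factor of nuclear genes for mitochondria, was in 3 cytosolic and 2 mitochondrial promoters (25% and 14.3%, against 5.19% of all). The ETS site CCGGAAG was in 4 promoters of each class (33.3% and 28.6%, against 9.93%). Mars2 and Kars held both of these.

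Genes around the synthetases were taken from lists. Of 17 genes that process, modify or export tRNA, 16 were tested and 13 rose, led by Nsun2, a tRNA methyltransferase (2.41 ± 0.11), Elac2, which trims tRNA ends (2.35 ± 0.26), Mettl1, another tRNA methyltransferase (2.28 ± 0.15), and Adat2, a tRNA adenosine deaminase subunit (1.94 ± 0.31). The median over the 16 was 1.08, beside -0.03 over all genes tested, of which 35.3% rose. Pstk, the kinase that prepares tRNA for selenocysteine (-1.21 ± 0.29), and Tsen34, a subunit of the splicing endonuclease (-0.52 ± 0.20), fell. Among genes that act with the mitochondrial enzymes, Gatc (1.46 ± 0.19), a subunit of the amidotransferase that makes glutaminyl-tRNA in mitochondria, Tufm (1.23 ± 0.13), the mitochondrial elongation factor, and Mtfmt (0.71 ± 0.24), which formylates the initiator tRNA, rose.

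Of 18 genes linked to ATF4, 13 were tested, 9 rose and 3 fell, beside 35.3% and 36.1% of all genes tested. The median over the 13 was 1.16, beside -0.03 over all genes. Atf4 itself rose by 1.49 ± 0.10, Mthfd2 (mitochondrial folate metabolism) by 3.30 ± 0.18, Slc7a5 (an amino acid transporter) by 2.89 ± 0.16 Psat1 (serine synthesis) by 2.77 ± 0.14 and Shmt2 (mitochondrial serine and glycine conversion) by 2.17 ± 0.10. The 3 that fell were Trib3 (-1.76 ± 0.45) and Ddit3 (-0.99 ± 0.26), known as stress response targets of ATF4, and Ddit4 (-0.54 ± 0.23), with edgeR adjusted p of 0.00129, 0.00165 and 0.0413. With the mouse as a block Ddit4 no longer passed (adjusted p = 0.0588). Exons of Ddit3 overlap the 3′ end of Mars on the opposite strand.

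With anti-LAIR-1 in the wells, the response to anti-CD3 had the same division. Cytosolic genes rose in 19 of 20 cases, the same 19 as with isotype, and the same 5 mitochondrial genes rose. Cars2 fell (-0.99 ± 0.22, edgeR adjusted p = 0.000563), and 9 mitochondrial genes did not pass. Over all 9000 genes tested 36.4% rose and 36.3% fell. These libraries are other cultures of the same mice.

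The class medians were 1.62 and -0.00, beside -0.04 over all genes tested. Qars was at 62.5, 69.1 and 76.4 CPM without and at 72, 77.9 and 84 CPM with anti-CD3, and it again did not pass (0.16 ± 0.11, adjusted p = 0.19). Iars2 (-0.44 ± 0.20, adjusted p = 0.0504) and Aars2 (0.75 ± 0.33, adjusted p = 0.0508) lay just outside the threshold. Iars2 passed with a negative sign when scaled by library totals (adjusted p = 0.0174) or by the upper quartile (0.00588), and also without the unstimulated library of mouse 1 (0.0374). Aars2 passed without the unstimulated library of mouse 2 (0.0118) or the stimulated library of mouse 3 (0.0314). The cytosolic gene had the larger value in 13 of 15 pairs, in 12 of them in each of the 3 mice, and the exceptions were methionine (-0.22) and serine (-0.15). Cysteine had the widest gap (2.59), followed by isoleucine (2.36) and proline (2.18). The scaffold genes rose by 3.16 ± 0.11 (Eef1e1), 2.02 ± 0.11 (Aimp2) and 0.82 ± 0.11 (Aimp1).

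The second question was whether anti-LAIR-1 altered synthetase RNA in stimulated cells. A single member passed the test: Eprs, which was at 402, 451 and 383 CPM with isotype and at 338, 361 and 336 CPM with anti-LAIR-1. The anti-LAIR-1 libraries were all below the isotype libraries, and Eprs fell in each mouse (-0.25, -0.32 and -0.19). The log2 fold change was -0.26 ± 0.08, a level 0.833 times that with isotype, with an edgeR adjusted p of 0.0498. Over the 8800 genes tested 5.76% passed, 1.86% in this direction, so that 1 of 35 tested members was near the background.

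The call for Eprs lay on the threshold. It was lost without the isotype library of mouse 1 (adjusted p = 0.0887) or mouse 2 (0.204) and without the anti-LAIR-1 library of mouse 1 (0.138), mouse 2 (0.0783) or mouse 3 (0.124). It held without the isotype library of mouse 3 (0.03), in DESeq2 (0.0366) and with the mouse as a block in edgeR (0.0294), but not with that block in DESeq2 (0.089). The fold change was between -0.20 and -0.33 over all of these fits. Sars (serine) was at 222, 277 and 194 CPM with isotype and at 209, 200 and 160 CPM with anti-LAIR-1, a log2 fold change of -0.29 ± 0.12 with overlapping groups. It did not pass (edgeR adjusted p = 0.18), but did so with the mouse as a block (0.0455), without a filter on low counts (0.0152) and without the isotype library of mouse 3 (0.0492).

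Across the cytosolic class the differences were small and mostly of 1 sign. Log2 fold changes were below 0 in 17 of 20 genes, against 49.4% of all genes tested, and ran from -0.29 to 0.10 with a median of -0.13 (0.00 over all genes). By mouse the median was 0.03, -0.10 and -0.18, so that mouse 1 did not share the sign. It was -0.084 without the isotype library of mouse 3, the nearest to 0 of the medians with 1 library left out, and -0.078 after thinning to the smallest total. The cytosolic sum was 2971, 3224 and 3160 CPM with isotype and 2952, 2902 and 2778 CPM with anti-LAIR-1, which do not overlap but nearly meet. The 3 genes above 0 were Cars (0.08), Farsa (0.10) and Qars (0.00). Genes of the class move together in a library, so that 20 genes do not amount to 20 separate observations.

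None of the 15 tested mitochondrial genes passed in edgeR or in DESeq2. Their median was -0.02, with 8 of 15 below 0, and it ran from -0.069 to 0.068 with 1 library left out. The difference between the class medians ran from -0.18 without the anti-LAIR-1 library of mouse 2 to -0.020 without that of mouse 3. Tars2 was at 29.6, 25.6 and 28.7 CPM with isotype and at 36.8, 29.5 and 45.3 CPM with anti-LAIR-1, groups that overlapped slightly, with a log2 fold change of 0.40 ± 0.15 that did not pass (edgeR adjusted p = 0.151). Yars2 was at 77.6, 68.5 and 70.3 CPM with isotype and at 63, 63.6 and 59 CPM with anti-LAIR-1, -0.22 ± 0.10 (adjusted p = 0.212). These groups of Yars2 did not overlap, but the difference did not pass the test over all genes. Among cytosolic genes Eprs, Kars, Rars, Tars and Yars also had all anti-LAIR-1 libraries below all isotype libraries, and of these only Eprs passed. No member had them all above. The share of all genes without overlap was not counted, so that no background stands beside these. At an unadjusted p below 0.05 there were 5 members, Eprs, Sars, Tars, Tars2 and Yars2, which is 5 of 35 beside 18.8% of all genes.

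In the same comparison, 6 of the 9 CD8+ T cell and naïve T cell markers were higher with anti-LAIR-1, with a median log2 fold change of 0.45 over the 9, and of the 6 stimulation genes Il2ra was lower (-0.49 ± 0.08, edgeR adjusted p = 0.00082). The part of these in the values of the synthetase genes was not tested. The scaffold genes had values of -0.22 ± 0.08 (Eef1e1), -0.16 ± 0.08 (Aimp2) and -0.11 ± 0.09 (Aimp1), of which none passed in edgeR (adjusted p from 0.109 to 0.588, 1 with an unadjusted p below 0.05), with or without the mouse as a block.

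**Figure D5:**
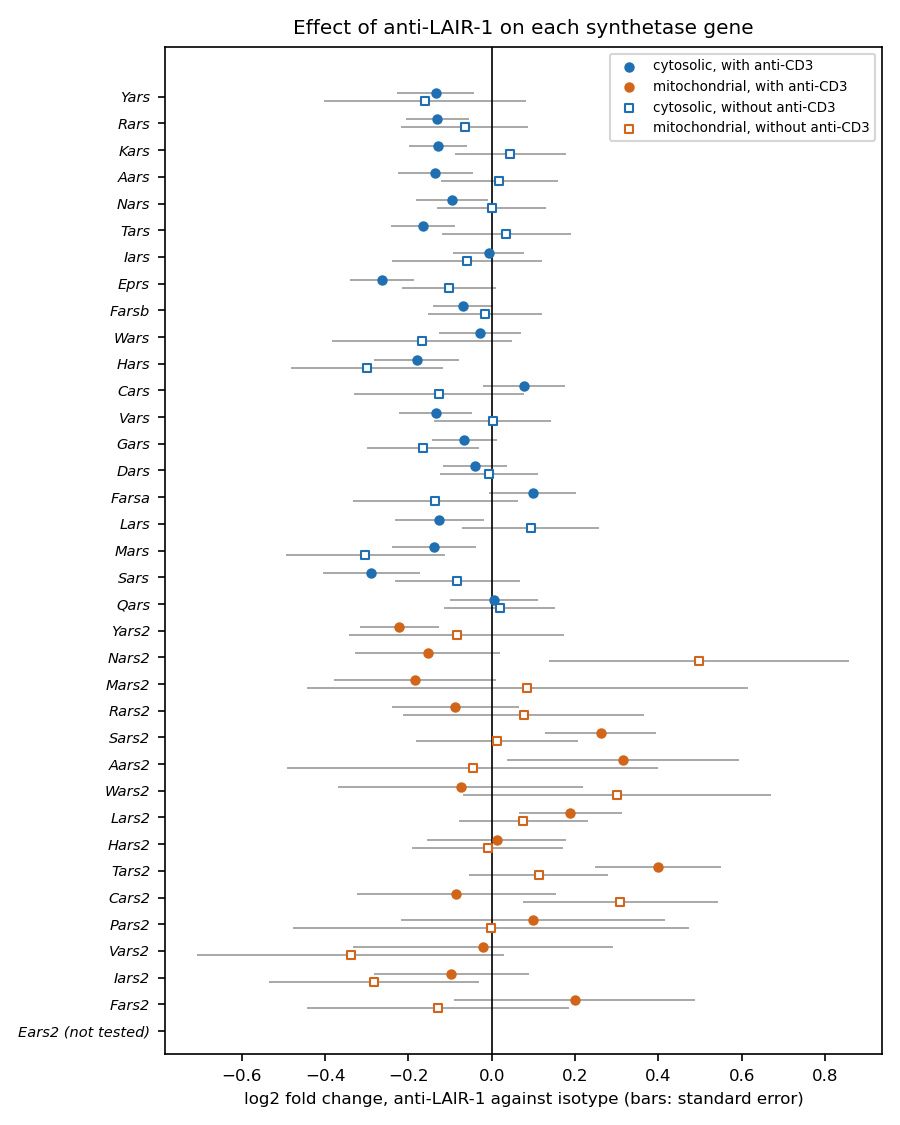
Log2 fold change of each synthetase gene with anti-LAIR-1 against isotype (x axis, bars give the standard error, n = 3 mice per group). Filled circles are stimulated and open squares unstimulated libraries, blue for cytosolic and orange for mitochondrial genes. Filled blue circles lie between -0.29 and 0.10 and are left of 0 for 17 of 20 genes, and standard errors are wider without anti-CD3 for most genes.

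In unstimulated cells anti-LAIR-1 changed none of the 35 tested members and none of the 8770 genes tested in edgeR (0% passed), while 384 genes (4.38%) and 0 members had an unadjusted p below 0.05. In DESeq2 no member passed either. Eprs was at 122, 112 and 111 CPM with isotype and at 111, 94.8 and 117 CPM with anti-LAIR-1, -0.10 ± 0.11, with overlapping groups. Class medians were -0.06 for cytosolic and 0.01 for mitochondrial genes. Single genes ranged from -0.34 (Vars2, SE 0.37) to 0.50 (Nars2, SE 0.36), and the sums were 1047 ± 52.9 against 1009 ± 14.3 CPM for the cytosolic and 248 ± 13.8 against 258 ± 3.41 CPM for the mitochondrial genes.

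Stimulated and unstimulated cells were compared for their response to anti-LAIR-1 by an interaction term over all 12 libraries. None of the 35 members passed in edgeR or DESeq2, and none had an unadjusted p below 0.05, while 191 of 9223 genes passed (2.07%) and 12.2% had an unadjusted p below 0.05. For Eprs the difference between the effects was -0.16 ± 0.13 (edgeR adjusted p = 0.717). The medians were -0.04 over cytosolic and 0.10 over mitochondrial genes, beside 0.04 over all genes. Standard errors of single members were between 0.13 and 0.54 on the log2 scale, which sets the size of a difference that 3 mice per group could show.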

How the data were processed

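RNA of sorted naïve CD8+ T cells from 3 mice in 4 conditions was sequenced by CEL-seq, which reads the 3′ ends of transcripts. The deposited values were counts per gene symbol, not normalized. To make them the authors used the MapAndGo script, with BWA MEM as the aligner and mm10 transcripts as the target (BWA and mm10 are also named in the submitters' processing notes). The transcript read of each pair was used, and ambiguous alignments were not counted, which lowers the counts of genes with near-identical copies. Whether molecular identifiers were collapsed is not given in the sources used here, so that limits from counts cover counting error only.

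Groups came from the sample titles. Levels were CPM scaled by TMM over the 12 libraries. Each comparison of 3 against 3 libraries used the quasi-likelihood F-test of edgeR 4.0.16 in R 4.3.3, after filterByExpr and TMM. P-values were adjusted by Benjamini-Hochberg over every gene that entered the fit, and 0.05 was the threshold. The interaction used all 12 libraries. Fold changes by mouse were differences of log2 CPM (prior count 2). DESeq2 1.42.0, other scalings and filters, the mouse as a block, thinning and leaving out each library were alternatives, and a robust spread was added after the data were seen. Fits were tested on simulated data.

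The mouse numbers in the titles mark cells of the same animal, so that libraries are paired. Across genes, libraries of the same mouse deviated from their group means with a mean r of 0.0265 to 0.0891 over the 4 comparisons of 2 groups. As the methods state no block, fits without it are reported. No pair of replicates agreed within counting error (chi-square per gene 3.82 to 5.62).

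The 36 members, their classes and the other lists were chosen with earlier results of these data known. All members are accounted for. Values by library are given for the 3 largest and 3 smallest responses to anti-CD3, for members that anti-LAIR-1 changed, and for the pairs with the 3 widest gaps, and further members shown by library were chosen after their values were seen. From the other lists up to 4 genes were named by size, and Atf4 and the other genes that fell after their values were seen. Gene positions are from GENCODE M21 (GRCm38, the genome of mm10), and promoters from RefSeq (GRCm38.p6). Some items are not reported here.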

Additional observations from a re-analysis of the deposited data

How the results depend on the processing

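With anti-CD3 the count of cytosolic genes that passed stayed within 1.5 times of the value reported under every alternative run, and so did that of mitochondrial genes. Signs that changed were those of genes that did not pass. In the isotype libraries Qars was -0.041 and Wars2 -0.10 with the upper quartile, Wars2 was -0.011 with library totals, and Lars2 was 0.064 without a filter and 0.0057 with all 12 libraries. In the anti-LAIR-1 libraries Qars was -0.051 and Lars2 -0.089 with the upper quartile, Lars2 was -0.12 after thinning, and Tars2 was 0.013 with DESeq2 size factors, 0.088 without a filter, 0.016 in DESeq2 and 0.0028 with all 12 libraries. Without anti-CD3 the anti-LAIR-1 effect on Yars2 was 0.043 after thinning. The difference of the class medians with anti-LAIR-1 present (1.63) was 1.77 at 10 counts or more in every library. For anti-LAIR-1 without anti-CD3 it was -0.15 (from -0.07) and for the interaction 0.084 (from -0.14) after thinning to the smallest total.

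The number of cytosolic genes that anti-LAIR-1 changed in stimulated cells (1) was 0 with library totals, with at least 10 counts, with all 12 libraries and after thinning, and 2 without a filter. Eprs had adjusted p of 0.0662, 0.0536, 0.0928 and 0.137 in the first 4 of these. The cause was not tested. A robust spread, chosen after seeing the data, gave 0.0361.

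Pairing libraries by mouse as a replicate block in edgeR gave 2 such genes (Eprs and Sars) and in DESeq2 0, and it changed no other call of a member in edgeR. With the block Lars2 was 0.011 in edgeR and 0.022 in DESeq2 with isotype, and Tars2 was 0.0024 in DESeq2 with anti-LAIR-1.

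Leaving out each library in turn gave 0 to 2 such genes. The difference of the class medians ranged from 1.26 to 1.71 for anti-CD3 with isotype, from 1.47 to 1.80 for anti-CD3 with anti-LAIR-1, from -0.18 to -0.020 for anti-LAIR-1 with anti-CD3, from -0.18 to -0.040 for anti-LAIR-1 without anti-CD3 and from -0.20 to 0.041 for the interaction. Ranges that crossed 0 for anti-CD3 were -0.17 to 0.21 for Lars2 and -0.18 to 0.33 for Wars2 with isotype, and -0.13 to 0.16 for Tars2, -0.60 to 0.11 for Vars2 and -0.54 to 0.17 for Wars2 with anti-LAIR-1. For anti-LAIR-1 without anti-CD3 they were -0.012 to 0.29 for Tars2, -0.26 to 0.11 for Yars2, -0.095 to 0.16 for Tars and -0.24 to 0.093 for Sars, and for the interaction -0.33 to 0.040 for Yars2.

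The counts of mitochondrial members were low in places (a mean of 6.83 per library for Ears2), and changes of such genes were not detectable at this depth unless large.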
